A study of Mus musculus with 11 samples.

Results

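The cell cycle and DNA replication genes described here are 38 named genes that act in the commitment to division, in the copying of DNA or in mitosis. Each gene is represented by the probe set annotated to its symbol alone with the highest mean over all arrays. Of the 38 genes, 37 had such a probe set, out of 18193 genes measured in this way, and Ccnb1 had none. The genes were compared array by array between 3 populations of sorted motor neurons, since transcripts of dividing cells are a sign of cycling cells among postmitotic neurons.

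The study profiled motor neurons of C57/BL6 mouse embryos on 11 Affymetrix arrays. Every embryo carried the Hb9::GFP reporter, in which the promoter of the motor neuron gene Hb9 (Mnx1) drives GFP, and the embryonic day is not given in the labels. Phrenic motor neurons (4 arrays) and lateral motor column neurons, here LMC radial (3 arrays), were back-filled with dextran-tetramethylrhodamine from the phrenic or the radial nerve of trunk explants, then sorted by flow cytometry after the spinal cord was dissociated. The C3-C5 GFP-only group (4 arrays), below GFP-only, holds sorted motor neurons of cervical segments C3 to C5 named for GFP alone, and the LMC labels name no segment. Whether replicates are separate embryos or litters is not given, so the p-values measure the spread between arrays.

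A cell that divides first commits in G1 through cyclin D and cyclin E kinases and E2F factors, then licenses its origins with the MCM helicase and copies its DNA in S phase. It enters mitosis with cyclin A, cyclin B and CDK1, and a set of kinases, checkpoint proteins and the anaphase promoting complex carries it through chromosome segregation. Motor neurons leave the cycle for good as they are born in the ventral spinal cord, whereas ventricular zone progenitors, glial precursors, neural crest derivatives and the mesenchyme around the cord go on dividing.

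Values are log2 expression from RMA, a method that corrects background, normalizes arrays and merges probes into one value per probe set, and levels are compared between arrays for the same probe set only. The motor neuron gene Mnx1 was at 9.01 ± 0.09 (SD, n = 4) in phrenic, 9.07 ± 0.16 (n = 4) in GFP-only and 8.14 ± 0.07 (n = 3) in LMC radial arrays. Other motor neuron markers differed more between the types. Of 14 such markers, 5 were lower in phrenic and 7 in LMC radial than in GFP-only neurons at an adjusted p under 0.05 (limma), and 0 higher. Of all probe sets, 1.96% and 3.76% passed in these comparisons in either direction. The lowest differences among the 14 were -4.90 and -6.16 on the log2 scale. The mean of 12 pan-neuronal genes lay between 11.38 and 11.61 in all arrays, and was lowest in phrenic replicate 4. Phrenic replicate 4 stood apart from the other arrays in the cell cycle genes, and phrenic replicate 3 came next, so results are also given without them. The arrays also differed in the lower part of their distributions, with phrenic 2 and 3 and GFP-only 2 and 3 below the other 7 arrays at the 25th percentile.

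The cell cycle genes were on the whole highest in phrenic and lowest in GFP-only neurons, with the phrenic arrays far apart from each other. The mean over the 37 genes was 6.34, 6.13, 6.74 and 7.53 in phrenic replicates 1 to 4. It was 5.74, 5.99, 5.98 and 5.92 in the GFP-only replicates and 6.16, 6.44 and 6.00 in the LMC radial replicates. All 4 phrenic arrays thus lay above all 4 GFP-only arrays, every LMC radial array lay above them too, and the phrenic and LMC radial ranges overlapped. By type the mean was 6.68 ± 0.62 (SD, n = 4), 5.91 ± 0.12 (n = 4) and 6.20 ± 0.22 (n = 3), and without phrenic replicate 4 the phrenic mean was 6.40.

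Phrenic replicate 4 was the highest of all 11 arrays in 33 of the 37 genes. The exceptions were Aurka, Ccne1 and Mcm5, highest in phrenic 3, and Tyms, highest in LMC radial 1. Phrenic replicate 2 was the lowest phrenic array in 22 genes, and LMC radial 2 was the highest LMC radial array in 25. The spread between arrays was larger in phrenic than in GFP-only samples for 36 of 37 genes, E2f1 being the exception, with median SDs of 0.674 in phrenic, 0.242 in GFP-only and 0.381 in LMC radial arrays. Counted per array, 36 of the genes were above a log2 value of 5 in phrenic 4, against 26 to 31 in the other phrenic arrays, 23 to 25 in the GFP-only arrays and 24 to 29 in the LMC radial arrays. The RNA comes from whole sorted populations, so a smaller number of cells of some type and less RNA per cell cannot be told apart.

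**Figure D1:**
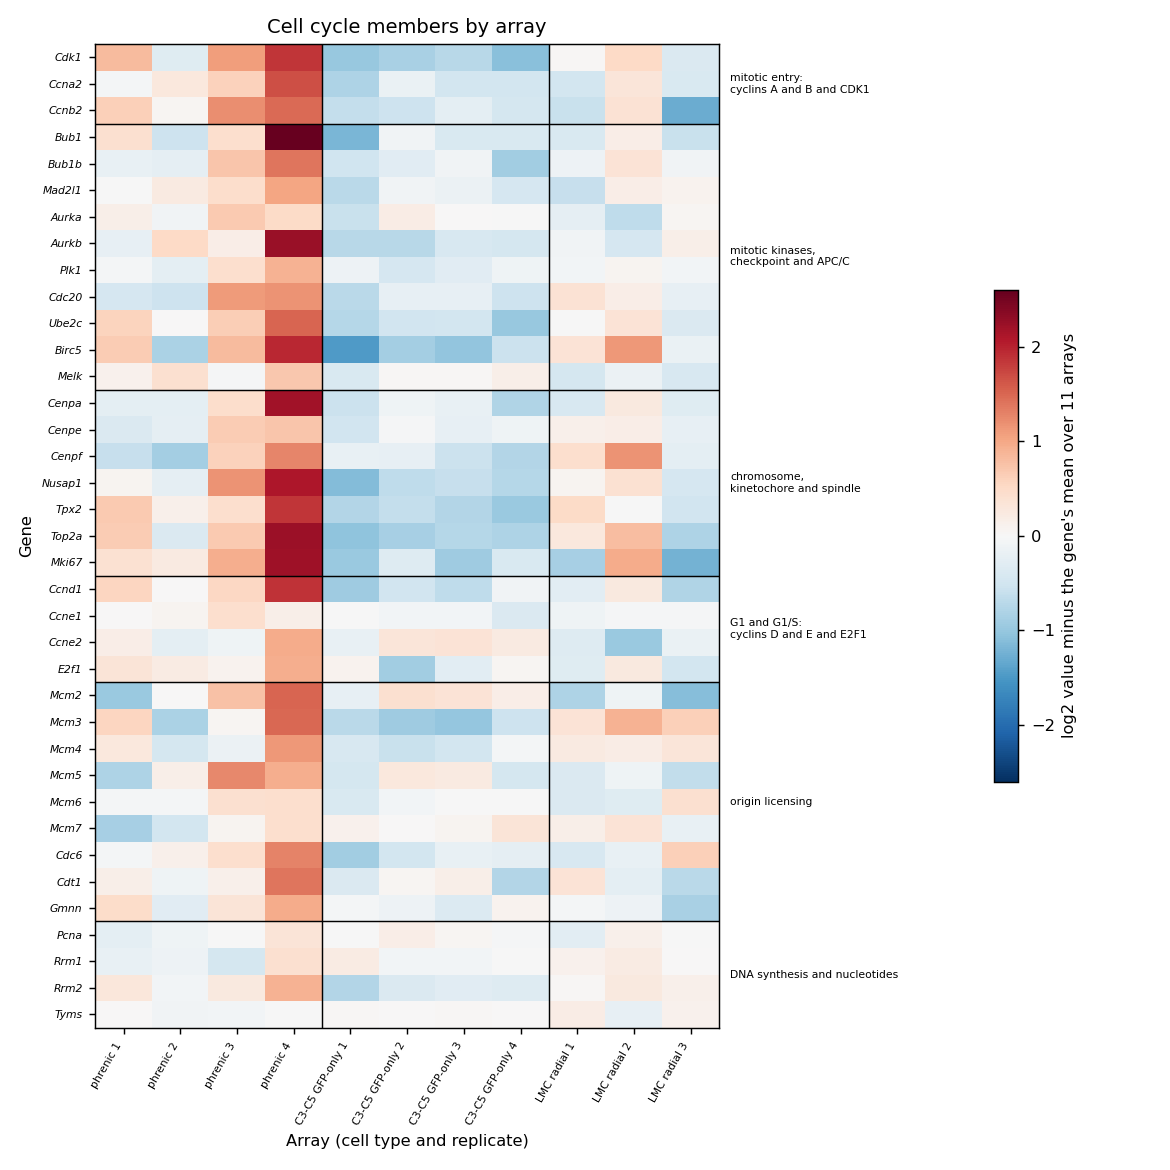
Each of the 37 genes (rows, grouped by role) in each of the 11 arrays (columns), as the log2 value minus the mean of that gene over all arrays; red is above and blue below that mean. The column of phrenic replicate 4 is the highest of all in 33 genes, and the 4 GFP-only columns lie mostly below the mean.

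Cyclins A and B and CDK1 bring a cell into mitosis, and all 3 measured genes of this group had phrenic arrays wholly above the GFP-only arrays. Cdk1, the mitotic kinase, was at 6.97, 5.81, 7.22 and 8.0 in phrenic replicates 1 to 4, at 5.14, 5.29, 5.42 and 5.05 in GFP-only replicates and at 6.16, 6.65 and 5.76 in LMC radial replicates. Its GFP-only arrays lay below every other array, whereas phrenic and LMC radial arrays overlapped. Cdk1 rose in phrenic over GFP-only neurons by 1.77 ± 0.37 on the log2 scale (SE, limma), 3.41-fold, with an adjusted p of 0.038. The same contrast was 1.44 ± 0.31 without phrenic 4 and 1.16 ± 0.32 without phrenic 3 and 4, with adjusted p of 0.039 and 0.098. With the replicate number as a block the call was lost (1.77 ± 0.40, adjusted p of 0.077), and it passed in 2 of the 11 fits that each left out 1 array, with adjusted p up to 0.112. Against LMC radial neurons the difference was 0.81 ± 0.40 and did not pass.

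Ccnb2, cyclin B2, the partner of CDK1, was at 5.48, 4.92, 6.08 and 6.34 in phrenic arrays, at 4.26, 4.33, 4.61 and 4.42 in GFP-only arrays and at 4.29, 5.23 and 3.59 in LMC radial arrays. LMC radial 2 was the one array outside the phrenic group above the lowest phrenic value. Ccnb2 passed in phrenic against the mean of the other types, at 1.32 ± 0.32 (SE) with an adjusted p of 0.045, and the call held in 2 of the 11 fits without 1 array, those without phrenic 2 or LMC radial 2. In the other 9 fits the difference was 1.11 to 1.39 with adjusted p from 0.070 to 0.118, and with the replicate block it was 1.27 with an adjusted p of 0.0995. The Ccnb2 probe set is dim, with a mean of 4.87 over all arrays, and so was not in the fit without dim probe sets. With values below 5 raised to 5 the difference fell to 0.69 ± 0.23 with an adjusted p of 0.253. Ccna2, cyclin A2, which acts from S phase to early mitosis, spanned 7.16 to 8.89 in phrenic, 6.42 to 7.05 in GFP-only and 6.73 to 7.53 in LMC radial arrays, and its phrenic minus GFP-only difference of 1.10 ± 0.33 missed the threshold with an adjusted p of 0.147.

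The bases upstream of 5 genes are shown because mitotic genes are known for sharing a promoter layout, a CCAAT box near a cell cycle genes homology region (CHR), which NF-Y and the DREAM and MuvB complexes bind. Cdk1, Ccnb2 and Ube2c are 3 of the 4 genes that passed in a comparison, the other being Tpx2. Nusap1 is a mitotic gene with a phrenic minus GFP-only difference of 1.55, and Pcna a replication gene with a difference of -0.05, neither past the threshold. Each is the 150 bases before the first transcribed base in RefSeq, build GRCm38.p6, read 5′ to 3′ on the strand of the gene, with CCAAT or its complement ATTGG and TTTGAA or TTCAAA in capitals.
Cdk1 (chr10:69352913-69353062, minus strand): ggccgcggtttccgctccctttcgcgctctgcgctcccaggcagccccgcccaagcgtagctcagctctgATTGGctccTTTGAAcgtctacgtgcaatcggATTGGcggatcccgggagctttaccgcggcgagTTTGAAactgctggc
Ccnb2 (chr9:70421555-70421704, minus strand): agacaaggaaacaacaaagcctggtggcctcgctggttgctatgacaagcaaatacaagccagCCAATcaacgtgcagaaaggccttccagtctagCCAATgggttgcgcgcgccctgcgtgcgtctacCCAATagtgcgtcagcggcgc
Ube2c (chr2:164769779-164769928, plus strand): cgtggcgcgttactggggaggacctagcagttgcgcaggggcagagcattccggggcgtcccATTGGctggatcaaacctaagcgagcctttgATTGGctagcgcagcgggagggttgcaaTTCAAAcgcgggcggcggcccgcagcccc
Nusap1 (chr2:119618148-119618297, plus strand): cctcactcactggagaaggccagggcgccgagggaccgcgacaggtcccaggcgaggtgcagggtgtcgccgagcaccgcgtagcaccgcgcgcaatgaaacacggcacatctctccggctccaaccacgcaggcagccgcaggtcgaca
Pcna (chr2:132253181-132253330, minus strand): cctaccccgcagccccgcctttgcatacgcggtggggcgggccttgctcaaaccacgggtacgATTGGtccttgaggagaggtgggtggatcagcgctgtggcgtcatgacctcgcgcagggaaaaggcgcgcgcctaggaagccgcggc

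In this window Cdk1 held 2 CHR matches and 2 CCAAT boxes, Ube2c held 1 and 2, Ccnb2 held 0 and 3, Nusap1 held 0 and 0, and Pcna held 0 and 1. Over 250 bases Nusap1 again held neither motif, while Ccnb2 and Mki67 held both. Over 250 upstream bases, 30 of the 37 genes had an entry in the RefSeq promoter table, and 9 of them (30.0%) held a CHR match (TTTGAA or TTCGAA, either strand), against 17.4% of 27025 genes. CCAAT (either strand) was found in 21 of 30 (70.0%) against 34.5%, and both motifs together in 9 of 30 against 6.21%. An E2F-like site (TTGGCGC or TTCCCGC, either strand) was found in 7 of 30 (23.3%), among them Cdk1, Mki67, Cdc6, Mcm5, Mcm6, Mcm7 and Rrm1, against 5.71%. These matches describe the letters in the window and were not tested for binding.

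The kinases, checkpoint proteins and ubiquitin ligase subunits of mitosis numbered 10, and all 10 had a higher mean in phrenic than in GFP-only neurons, with a median difference of 0.82 on the log2 scale. Of these 10, 1 passed between phrenic and GFP-only neurons, where 1.96% of all probe sets did. Ube2c, the ubiquitin-conjugating enzyme of the anaphase promoting complex, was at 6.60, 6.04, 6.67 and 7.54 in phrenic arrays, at 5.30, 5.54, 5.55 and 5.04 in GFP-only arrays and at 6.01, 6.38 and 5.64 in LMC radial arrays. As for Cdk1, the GFP-only arrays formed the bottom of the order and did not overlap with any other array. Ube2c rose in phrenic over GFP-only neurons by 1.36 ± 0.28 (SE), 2.56-fold, with an adjusted p of 0.035, and over the mean of the other types by 1.03 ± 0.25 with an adjusted p of 0.047. The call against GFP-only neurons held in 4 of the 11 fits without 1 array, among them that without phrenic 4 (1.08 ± 0.21), and was lost with the replicate block at an adjusted p of 0.081. The call against the mean of the other types held in 1 of the 11 fits, that without phrenic 2, and was 0.75 ± 0.19 without phrenic 4 and 0.99 ± 0.28 with the block (adjusted p of 0.104).

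The representative probe sets of the other 9 genes of this group did not pass in any comparison in limma, although 6 had an unadjusted p under 0.05 between phrenic and GFP-only neurons. At that p, 2697 of all 45037 probe sets were higher and 3160 lower in phrenic neurons. Birc5, survivin, the subunit that brings Aurora B to the inner centromere, had a phrenic minus GFP-only difference of 1.65 ± 0.49 and an LMC radial minus GFP-only difference of 1.42 ± 0.53 (SE), with adjusted p of 0.144 and 0.169. Its LMC radial arrays, from 7.40 to 8.70, were all above the GFP-only arrays, from 6.09 to 7.0, while the phrenic arrays ran from 6.75 to 9.53. Aurkb, Aurora B itself, was at 6.17 in phrenic 4 and between 3.20 and 4.44 in the other 10 arrays. Bub1, a spindle checkpoint kinase, was at 7.12 in phrenic 4 and between 3.36 and 4.98 elsewhere, with a difference of 1.24 ± 0.54 over all arrays. Bub1b, Mad2l1, Aurka, Plk1, Cdc20 and Melk had phrenic minus GFP-only differences from 0.35 to 0.87. Melk, a kinase of dividing progenitors, was with Ccne1 one of the genes whose phrenic arrays (4.51 to 5.23) all lay above the LMC radial arrays (4.08 to 4.39). A dim probe set of Aurka, at 4.42 or below in every array, passed in LMC radial neurons against the mean of the other types (0.55 ± 0.13, adjusted p of 0.028).

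**Figure D2:**
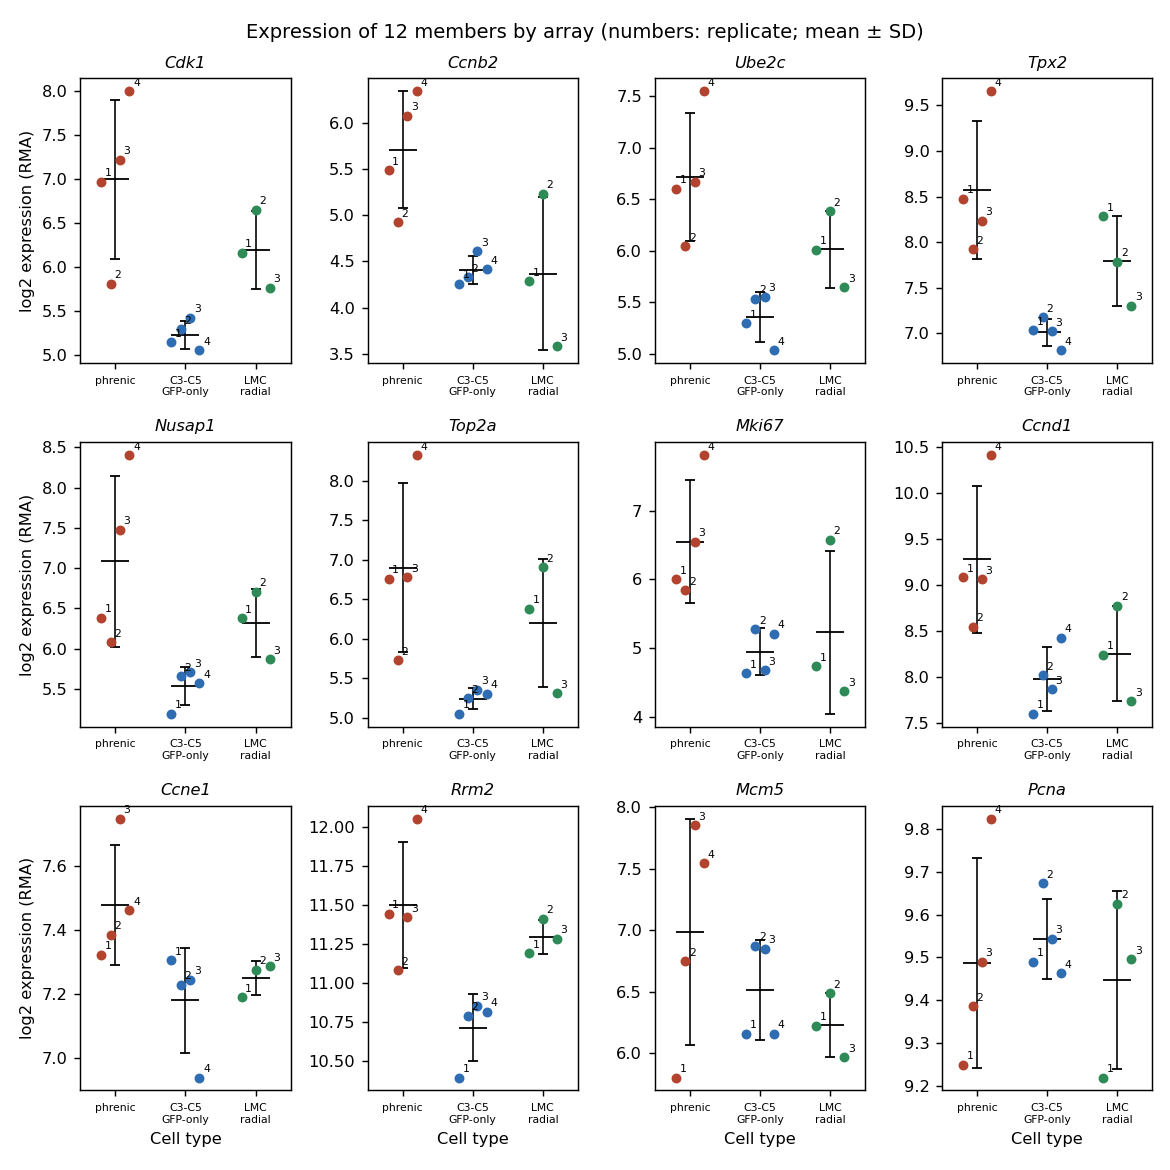
Log2 expression of the 12 genes given array by array, by cell type; points are arrays with the replicate number beside them, lines the mean and SD of each type, and the vertical scale differs between panels. GFP-only points lie below every other array in Cdk1, Ube2c, Tpx2, Nusap1 and Rrm2, and phrenic replicate 4 is the highest point in all panels except Ccne1 and Mcm5.

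Genes of the chromosome, kinetochore and spindle gave the largest differences of any group, with a median of 1.55 over 7 genes between phrenic and GFP-only neurons. Tpx2, a spindle assembly factor that activates Aurora A, was at 8.48, 7.92, 8.24 and 9.65 in phrenic arrays, at 7.04, 7.18, 7.03 and 6.82 in GFP-only arrays and at 8.29, 7.79 and 7.30 in LMC radial arrays. Tpx2 rose in phrenic over GFP-only neurons by 1.56 ± 0.33 (SE), 2.94-fold, with an adjusted p of 0.039. It passed in 4 of the 11 fits without 1 array, among them that without phrenic 4 (1.20 ± 0.22). The call was lost without phrenic 1 or 3, without LMC radial 2 and without each GFP-only array, with adjusted p up to 0.116. With the replicate block the adjusted p was 0.055, and without both phrenic 3 and 4 it was 0.042 (1.19 ± 0.26). Another Tpx2 probe set, with values from 3.85 to 6.71, differed by 1.42 ± 0.35 without passing there and passed in phrenic against the mean of the other types (1.34 ± 0.32, adjusted p of 0.041), and the dimmest pair, at 4.86 or below in every array, differed by 0.10 and -0.10. In that pair the LMC radial arrays, from 4.41 to 4.86, were all above the other arrays, which were at 3.83 or below, and passed against GFP-only neurons (1.18 and 1.16, adjusted p of 0.0053 and 0.0033), so the probe sets of Tpx2 do not share one order of the types.

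Mki67, which encodes the proliferation antigen Ki-67, was at 6.00, 5.84, 6.55 and 7.81 in phrenic arrays, at 4.63, 5.27, 4.68 and 5.21 in GFP-only arrays and at 4.74, 6.58 and 4.37 in LMC radial arrays. LMC radial 2 lay within the phrenic range and the other 2 LMC radial arrays within or below the GFP-only range. The phrenic minus GFP-only difference was 1.60 ± 0.51 (SE, limma) with an adjusted p of 0.172. Top2a, the topoisomerase that untangles replicated chromosomes, was at 6.76, 5.73, 6.78 and 8.32, then at 5.05, 5.24, 5.35 and 5.30, then at 6.38, 6.91 and 5.31, in phrenic, GFP-only and LMC radial arrays. Its difference was 1.66 ± 0.48 with an adjusted p of 0.126. In both genes phrenic arrays were all above the GFP-only arrays, and phrenic 4 lay more than 1 log2 unit above the next array.

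Nusap1, a nucleolar and spindle protein that bundles microtubules, was at 6.38, 6.08, 7.48 and 8.40 in phrenic, at 5.19, 5.66, 5.70 and 5.57 in GFP-only and at 6.38, 6.71 and 5.87 in LMC radial arrays. The GFP-only arrays were again below all others, and the phrenic minus GFP-only difference of 1.55 ± 0.43 (SE) had an adjusted p of 0.113. Cenpa, the centromeric histone, was at 7.52 in phrenic 4 and at 5.80 or below elsewhere. Cenpf, a kinetochore protein of G2 and mitosis, had its highest mean in LMC radial neurons. The 3 means were 5.26 ± 0.71 (SD, n = 3) in LMC radial, 4.90 ± 1.01 in phrenic and 4.38 ± 0.27 in GFP-only arrays (n = 4 each). Cenpe, a kinetochore motor, differed by 0.40 ± 0.25 (SE) between phrenic and GFP-only neurons.

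In the G1 group 0 of 4 genes passed in limma by their representative probe sets, with an unadjusted p under 0.05 between phrenic and GFP-only neurons in 3. In that comparison 1.96% of all 45037 probe sets passed, and 2697 were higher and 3160 lower at the unadjusted p. Ccnd1, cyclin D1, which couples growth signals to the cycle, was at 9.09, 8.55, 9.07 and 10.41 in phrenic, at 7.60, 8.02, 7.87 and 8.43 in GFP-only and at 8.25, 8.77 and 7.74 in LMC radial arrays. All phrenic arrays lay above the GFP-only arrays, LMC radial 2 reached into the phrenic range, and the difference of 1.30 ± 0.37 (SE) had an adjusted p of 0.119. With the probe sets of each gene averaged, Ccnd1 passed in this comparison in place of Tpx2. Its dimmer probe set, from 3.56 to 4.70, passed on its own in phrenic against the mean of the other types (0.70 ± 0.13, adjusted p of 0.016) and against LMC radial neurons (0.84 ± 0.16, adjusted p of 0.012). Ccne1, cyclin E1, was at 7.32, 7.38, 7.75 and 7.46 in phrenic, at 7.31, 7.23, 7.24 and 6.94 in GFP-only and at 7.19, 7.28 and 7.29 in LMC radial arrays. It was the 1 gene of the 37 whose phrenic arrays lay above every other array, by a margin of 0.016, and its difference of 0.30 ± 0.12 had an adjusted p of 0.312. Its other probe set, at 6.88 to 7.01 in phrenic, 6.09 to 6.74 in GFP-only and 6.28 to 6.49 in LMC radial arrays, passed in phrenic against LMC radial neurons (0.57 ± 0.15, adjusted p of 0.049). Ccne2, cyclin E2, had about equal means in phrenic (6.30 ± 0.55, SD) and GFP-only neurons (6.28 ± 0.25) and a lower mean in LMC radial neurons (5.61 ± 0.43), at an adjusted p of 0.231 for LMC radial against GFP-only. E2f1, which turns on S phase genes, differed by 0.65 ± 0.26 (SE) between phrenic and GFP-only neurons.

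Origin licensing genes, which load and control the MCM helicase, differed less than the mitotic genes, with a median of 0.49 over 9 genes between phrenic and GFP-only neurons. By their representative probe sets 0 passed in any comparison in limma, with an unadjusted p under 0.05 between phrenic and GFP-only neurons in 2. Of all 45037 probe sets, 1.96% passed between these types, and 2697 were higher and 3160 lower at the unadjusted p. Mcm5, a helicase subunit, was at 5.80, 6.75, 7.85 and 7.54 in phrenic, at 6.16, 6.87, 6.85 and 6.16 in GFP-only and at 6.22, 6.49 and 5.97 in LMC radial arrays. Phrenic 1 was the lowest and phrenic 3 the highest of the 11 arrays, so the types overlapped throughout, and the difference of 0.48 ± 0.39 (SE) turned to -0.23 without phrenic 3 and 4. Mcm3 showed another order, with all LMC radial arrays (6.24 to 6.79) above all GFP-only arrays (4.87 to 5.34) and a difference of 1.42 ± 0.41 at an adjusted p of 0.086. Mcm4 had the same order, with LMC radial minus GFP-only at 0.63 ± 0.30. Mcm2 pointed the other way, with a mean of 5.84 ± 0.50 (SD, n = 3) in LMC radial against 6.68 ± 0.28 (n = 4) in GFP-only neurons. The helicase subunits therefore did not share one order of the types, and Mcm7 had its lowest mean in phrenic neurons, at 8.89 ± 0.58 against 9.22 ± 0.14 and 9.20 ± 0.28. Mcm6 differed by 0.32 ± 0.20 (SE). Another Mcm6 probe set stood at 6.14 to 6.41 in LMC radial arrays and at 4.98 or below in all others, and passed in LMC radial against GFP-only neurons (1.72 ± 0.30, adjusted p of 0.012) and against the mean of the other types (1.72 ± 0.26, adjusted p of 0.0037). Cdc6, the loader of the helicase, was near background in most arrays, with means of 4.51, 3.61 and 4.06 in phrenic, GFP-only and LMC radial neurons. Cdt1 and its inhibitor Gmnn had phrenic minus GFP-only differences of 0.63 ± 0.35 and 0.49 ± 0.26. A second Cdt1 probe set also set LMC radial arrays (4.90 to 5.41) above all others (3.18 to 4.22), and passed against GFP-only neurons (1.19 ± 0.24, adjusted p of 0.025) and against the mean of the other types (1.27 ± 0.22, adjusted p of 0.0065). In all, 8 of the 46 further probe sets of the 37 genes passed in at least 1 comparison, in 6 genes: Aurka, Ccnd1, Ccne1, Cdt1, Mcm6 and Tpx2.

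The DNA synthesis and nucleotide genes were the group with the smallest differences, a median of -0.06 over 4 genes between phrenic and GFP-only neurons. Pcna, the sliding clamp of DNA polymerases, which also serves DNA repair, was at 9.25, 9.39, 9.49 and 9.82 in phrenic, at 9.49, 9.67, 9.54 and 9.46 in GFP-only and at 9.22, 9.63 and 9.50 in LMC radial arrays. The 3 types overlapped fully, with a phrenic minus GFP-only difference of -0.05 ± 0.14 (SE). Rrm2, the S phase subunit of ribonucleotide reductase, was at 11.45, 11.08, 11.42 and 12.05 in phrenic, at 10.39, 10.79, 10.86 and 10.82 in GFP-only and at 11.19, 11.41 and 11.28 in LMC radial arrays. Here too the GFP-only arrays were below all others, and the phrenic minus GFP-only difference of 0.79 ± 0.19 had an adjusted p of 0.067. Its partner subunit Rrm1 differed by -0.11 ± 0.17. Tyms, thymidylate synthase, was at 3.92 or below in every array for each of its 4 probe sets, close to background, and says little about the types.

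**Figure D3:**
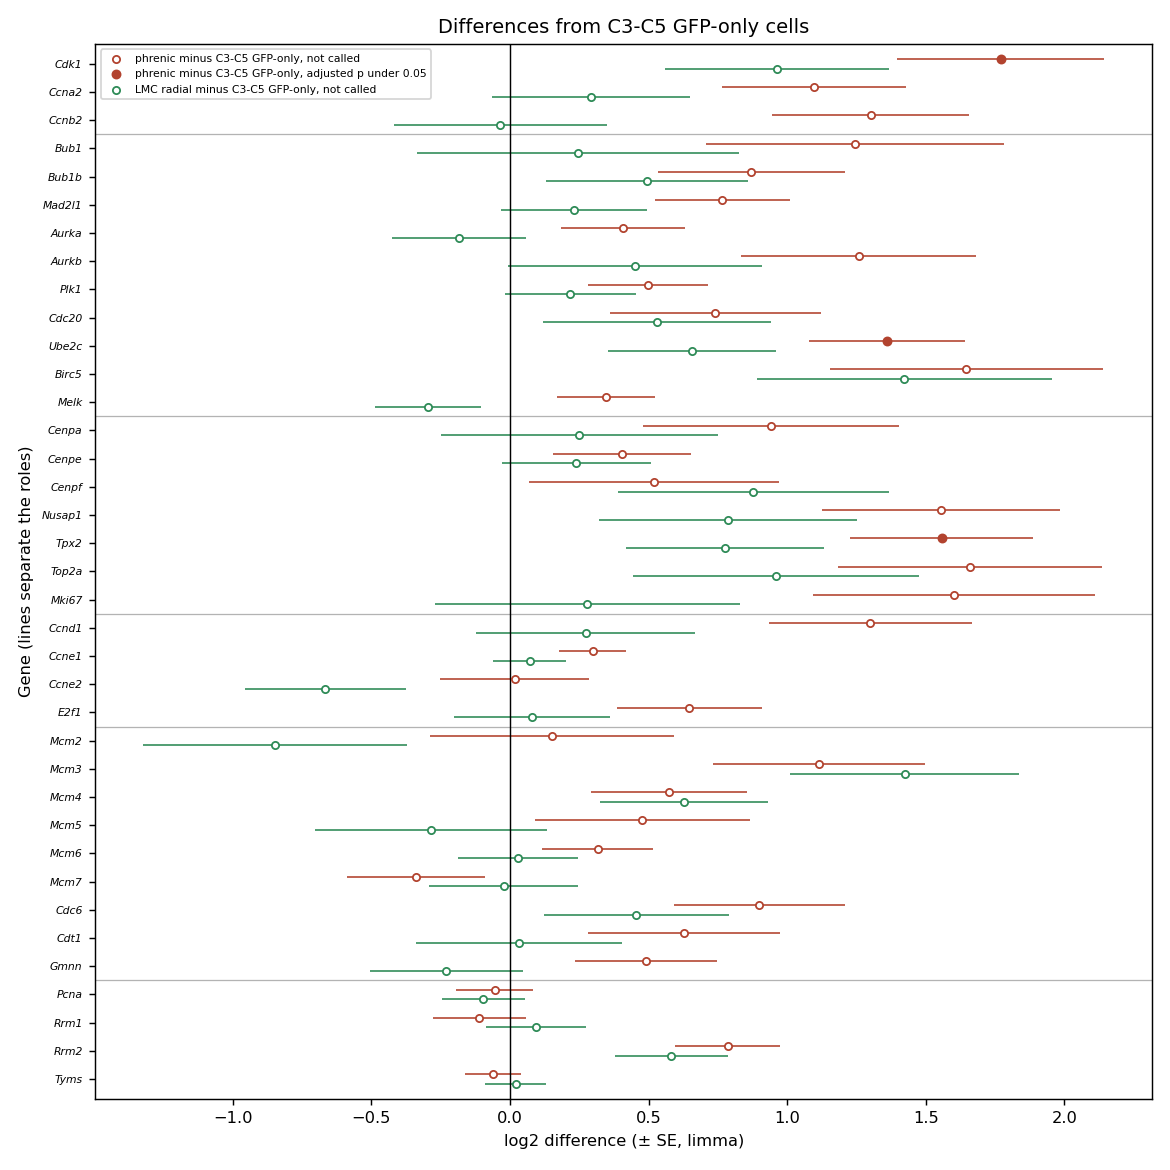
Difference of phrenic (red) and LMC radial (green) from GFP-only neurons for each of the 37 genes on the log2 scale, with the SE from limma; filled points have an adjusted p under 0.05. The 3 filled points are Cdk1, Ube2c and Tpx2, and 33 phrenic and 28 LMC radial points lie above 0; both series share the GFP-only arrays.

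Phrenic against GFP-only neurons, 3 of 37 genes passed, all higher in phrenic (Cdk1, Ube2c and Tpx2), where 1.96% of 45037 probe sets passed in either direction and 0.973% were higher. Means were higher in phrenic for 33 genes and lower for 4 (Mcm7, Pcna, Rrm1 and Tyms), and the median difference was 0.74 against -0.00038 over all probe sets. Of all probe sets, 22490 were higher and 22547 lower by mean. Among 25 genes with several probe sets, 19 had all of them in the same direction. Unadjusted, 20 genes had a p under 0.05 in limma, all higher, where 2697 of 45037 probe sets were higher and 3160 lower. In 14 genes every phrenic array lay above every GFP-only array, where 3.51% of all probe sets did, and in 0 genes below, where 3.98% did. These 14 were Cdk1, Ccna2, Ccnb2, Mad2l1, Aurkb, Ube2c, Nusap1, Tpx2, Top2a, Mki67, Ccnd1, Ccne1, Cdc6 and Rrm2. The median difference was 0.46 without phrenic 4 and 0.29 without phrenic 3 and 4. With the replicate number as a block 1 gene passed, Cdc6, and Cdk1, Ube2c and Tpx2 kept their differences at adjusted p of 0.077, 0.081 and 0.055. The count was 9 without phrenic 2, which is the lowest phrenic array for most of these genes, and 0 without phrenic 1, phrenic 3 or any single GFP-only array, and 1, 1 and 2 without LMC radial 1, 2 and 3. Over the fits without 1 array, a wider list of cell cycle genes described below also moved, from 1 to 11. The share of all probe sets passing in each of these fits is not given here, so the counts alone do not set these genes apart.

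Against the mean of the other types, which stands in here for the study's setting of each cell type against overall expression, 2 genes passed in phrenic neurons, Ccnb2 and Ube2c, both higher, where 3.85% of all probe sets passed and 2.4% were higher. The median difference over the 37 genes was 0.61 against -0.019 over all probe sets. Of the 37, 19 had an unadjusted p under 0.05, all higher, where 4027 of 45037 probe sets were higher and 3845 lower. In GFP-only neurons 0 genes passed in limma, where 0.973% of probe sets did, and the median difference was -0.60. Unadjusted, 15 genes had a p under 0.05, all lower, where 3019 of 45037 probe sets were lower and 3666 higher. Cdk1, Ube2c, Nusap1, Tpx2 and Rrm2 had every GFP-only array below all 7 other arrays, where 0.744% of all probe sets did, and Ccne1 had every phrenic array above all others, where 2.09% did. In LMC radial neurons 0 genes passed, where 7.02% of probe sets did, with 1 higher and 2 lower at an unadjusted p under 0.05 and a median of -0.07. At that p, 5358 of 45037 probe sets were higher and 4968 lower.

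Phrenic and LMC radial neurons, both filled from a nerve, differed in 0 of the 37 genes at the adjusted threshold, where 6.61% of all probe sets did. They differed in 9 at an unadjusted p under 0.05, all higher in phrenic, where 4842 of 45037 probe sets were higher and 5120 lower. The median difference was 0.59, and it was 0.26 without phrenic 4 and 0.05 without phrenic 3 and 4. In 2 genes, Melk and Ccne1, every phrenic array lay above every LMC radial array, where 8.08% of probe sets did, and in 0 below, where 10.6% did. LMC radial against GFP-only neurons, 0 genes passed, where 3.76% of probe sets did. The spread in this fit is shared by all 11 arrays, the widely spread phrenic arrays among them. Under other settings the count ran from 0 to 5, with 5 in the fit of these 2 types. The median difference was 0.25, with 28 genes higher and 9 lower by mean, where 22742 of 45037 probe sets were higher. Unadjusted, 4 were higher (Cdk1, Birc5, Mcm3 and Rrm2) and 1 lower (Ccne2) at p under 0.05. Of 45037 probe sets, 4525 were higher and 4478 lower at that p, so the share of higher genes was near that of all probe sets. In 9 genes all LMC radial arrays lay above all GFP-only arrays, where 11.4% of probe sets did, and in 0 below, where 11.7% did. These were Cdk1, Plk1, Ube2c, Birc5, Nusap1, Tpx2, Mcm3, Mcm4 and Rrm2. The contrasts share arrays, so they are not independent of each other.

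**Figure D4:**
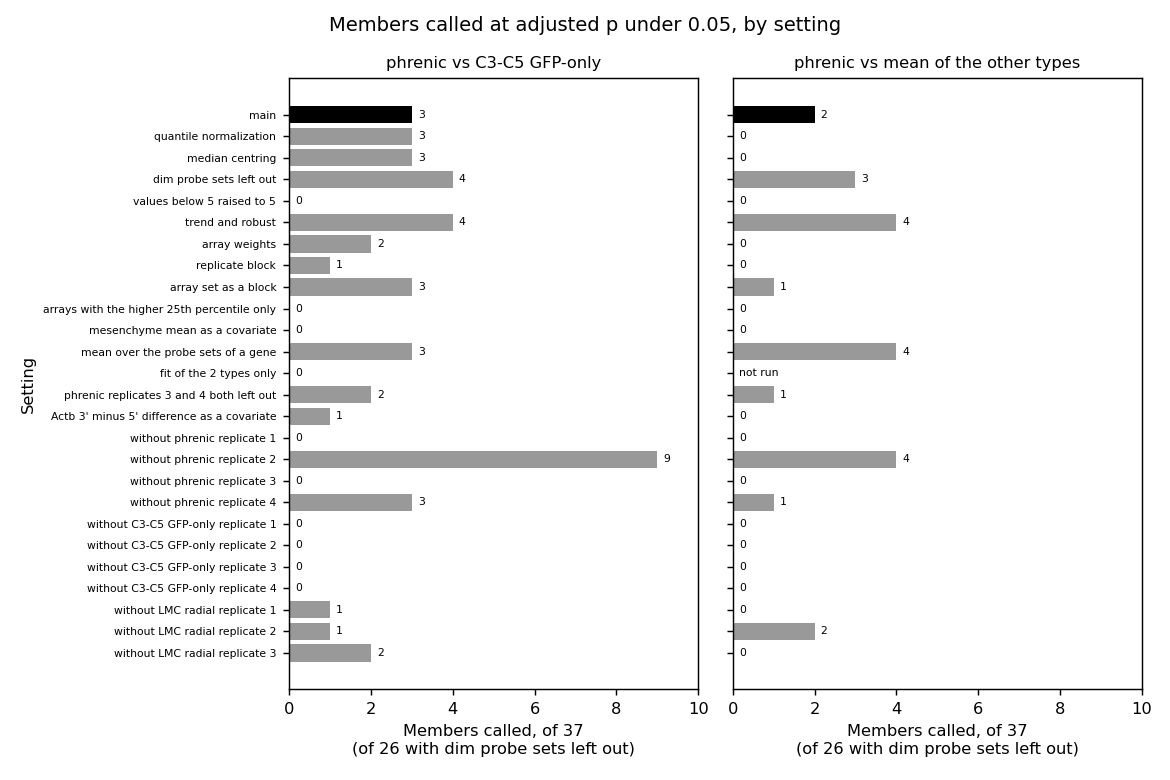
Number of the 37 genes with an adjusted p under 0.05 (bar length) under each setting of the analysis (rows), for phrenic against GFP-only neurons (left) and against the mean of the other types (right); the black bar is the reported fit. The left count of 3 ranges from 0 to 9, with 9 without phrenic replicate 2, and the right count of 2 from 0 to 4.

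A wider list of 157 other cell cycle and DNA replication genes, of which 155 were measured, gave smaller differences between the types. Its array mean was 6.73 ± 0.30 (SD, n = 4) in phrenic, 6.43 ± 0.07 (n = 4) in GFP-only and 6.50 ± 0.09 (n = 3) in LMC radial arrays, with phrenic 4 highest at 7.14. Against the mean of the other types 8 genes rose and 1 fell in phrenic neurons, 0 passed in limma in GFP-only neurons (4 higher and 30 lower at an unadjusted p under 0.05), and 3 rose and 3 fell in LMC radial neurons. At that unadjusted p, 3666 of 45037 probe sets were higher and 3019 lower in GFP-only neurons. Pairwise, 2 rose and 0 fell in phrenic over GFP-only neurons, 4 rose and 3 fell in phrenic over LMC radial neurons, and 1 rose and 1 fell in LMC radial over GFP-only neurons. These shares of the list, 1.29%, 4.52% and 1.29%, lie below the 1.96%, 6.61% and 3.76% of all probe sets that passed in the same comparisons. For the comparisons with the mean of the other types, shares were 5.81%, 0% and 3.87% for phrenic, GFP-only and LMC radial neurons, beside 3.85%, 0.973% and 7.02% of all probe sets. The medians over the list were 0.21, -0.11 and -0.05 for phrenic, GFP-only and LMC radial neurons against the mean of the other types.

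Racgap1, the cytokinesis protein of the centralspindlin complex, was the clearest of these genes. It was at 7.79, 8.19, 8.38 and 8.36 in phrenic, at 7.19, 7.13, 7.06 and 7.12 in GFP-only and at 7.07, 7.08 and 6.57 in LMC radial arrays. Phrenic arrays were all above the others, phrenic 4 was not the highest, and the difference from the mean of the other types was 1.16 ± 0.14 (SE) with an adjusted p of 0.000852. Racgap1 rose against each type, by 1.05 ± 0.16 over GFP-only and 1.27 ± 0.17 over LMC radial neurons, and passed against the mean of the other types in all 11 fits that left out 1 array. It lost that call in the arrays with the higher 25th percentile (1.04, adjusted p of 0.091), and the call against GFP-only neurons both there (0.92, adjusted p of 0.241) and with the array mean of 20 mesenchyme genes as a covariate (0.65, adjusted p of 0.309). With its probe sets averaged the difference from the mean of the other types was 0.71 and passed. Rbl1, the pocket protein p107, a repressor partner of E2F factors, rose by 0.97 ± 0.18 over the mean of the other types with an adjusted p of 0.012. That call was lost with its probe sets averaged (0.33, adjusted p of 0.062), the mesenchyme covariate (0.62, adjusted p of 0.195), the 3′ to 5′ difference of Actb as a covariate (0.81, adjusted p of 0.057) and without phrenic 3 and 4 (0.78, adjusted p of 0.063). Its arrays, from 6.62 to 7.45 in phrenic, were above the 6.00 to 6.57 of GFP-only and the 5.51 to 6.03 of LMC radial arrays.

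Other genes of the wider list that rose in phrenic neurons over the mean of the other types were Prc1 (1.30 ± 0.31), which bundles midzone microtubules, Pttg1 (0.37 ± 0.08), securin, and Ccnf (0.85 ± 0.19), cyclin F. Pkmyt1 (0.37 ± 0.09), an inhibitory CDK1 kinase, Tk1 (0.85 ± 0.21), thymidine kinase, and E2f5 (0.50 ± 0.11), a repressive E2F, also rose (SE throughout). Rad21, a cohesin subunit that also works in neurons, fell by 0.47 ± 0.09. In LMC radial neurons Cdkn1a, the CDK inhibitor p21, fell by 1.12 ± 0.23 against the mean of the other types, from 7.43 ± 0.55 (SD) in phrenic and 7.57 ± 0.18 in GFP-only to 6.38 ± 0.26. Dctpp1, a nucleotide-cleaning enzyme, rose by 0.50 ± 0.12 (SE) in LMC radial neurons, and Esco2 rose by 0.97 ± 0.19 with every array at 4.15 or below. By role, the licensing and firing genes of this list had a median of -0.02 over 18 genes between phrenic and GFP-only neurons, against 0.42 over 25 mitotic kinases and regulators and 0.27 over 34 spindle, kinetochore and cytokinesis genes.

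Markers of some other cell types moved with the cell cycle genes from array to array, while endothelial and erythroid means were not highest in phrenic replicate 4. The mean of 20 mesenchyme genes was 5.56, 5.16, 6.34 and 6.66 in phrenic replicates 1 to 4, from 4.44 to 4.83 in GFP-only and 5.74, 5.86 and 4.89 in LMC radial arrays. Of these 20 genes 4 rose in phrenic over GFP-only neurons (Col5a2, Fn1, Postn and Foxc1) and 0 fell. Of all probe sets, 1.96% passed in this comparison and 0.973% were higher. Phrenic 4 was the highest array for 12 of them, and the collagen Col1a1 was at 8.22, 7.17, 9.62 and 9.28 in phrenic arrays against 5.40 to 6.86 in GFP-only arrays. With the array mean of this list as a covariate, 0 of the 37 cell cycle genes passed between phrenic and GFP-only neurons, 16 had a difference above 0, and the median difference was -0.03 in place of 0.74. The mean of the list differs between the types as the cell cycle genes do, so such a fit removes part of any difference between types, and the 2 cannot be told apart in it.

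The neural lists moved mainly with phrenic 4. The mean of 15 progenitor genes was 6.29, 5.90, 6.15 and 7.25 in phrenic, from 5.82 to 5.99 in GFP-only and from 6.08 to 6.42 in LMC radial arrays, with phrenic 4 highest for 11 of 15. The progenitor and mesenchyme lists have the same lowest phrenic minus LMC radial difference (-1.12), so they are not fully separate. Sox2, a factor of neural progenitors, was at 8.37, 7.05, 7.53 and 9.54 in phrenic, 5.85 to 7.15 in GFP-only and 6.44 to 7.81 in LMC radial arrays. Olig2 and Olig1, which mark motor neuron progenitors, were at 3.12 and 3.66 or below in all arrays, near background. The mean of 5 Schwann and neural crest genes was 6.34, 5.40, 6.65 and 7.92 in phrenic against 5.20 to 5.73 in GFP-only and 5.61 to 6.34 in LMC radial arrays, with phrenic 4 highest for 4 of 5. Erbb3, a receptor of Schwann cell precursors, was at 8.43 in phrenic 4 and at 6.45 or below elsewhere, and Sox10 was at 6.41 and 6.36 in phrenic 3 and 4.

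Macrophage genes had a mean of 4.83 and 4.87 in phrenic 3 and 4 and from 3.45 to 3.92 in the other 9 arrays, and C1qb was at 7.37 and 5.52 in phrenic 3 and 4 and at 3.39 or below elsewhere. The mean of 10 interneuron genes was 5.60 in phrenic 4 and from 4.13 to 4.94 in the other arrays, with Gad1 at 7.55 in phrenic 4. Endothelial genes were at 4.32 ± 0.44 (SD, n = 4) in phrenic, 3.77 ± 0.19 (n = 4) in GFP-only and 4.31 ± 0.42 (n = 3) in LMC radial arrays, with 0 of 10 highest in phrenic 4, and 7 erythroid genes at 4.37 ± 0.74, 4.67 ± 0.15 and 4.54 ± 0.66. Motor neuron markers were at 8.43 ± 0.07, 9.21 ± 0.07 and 8.0 ± 0.08, and phrenic 4 was within the phrenic range. RNA quality also differed, since the 3′ to 5′ difference of the Actb control sets ran from 1.05 to 2.15 in phrenic, 1.07 to 1.98 in GFP-only and 1.01 to 1.12 in LMC radial arrays. The part of the progenitor, Schwann and neural crest, macrophage and interneuron lists in the cell cycle differences was not tested.

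**Figure D5:**
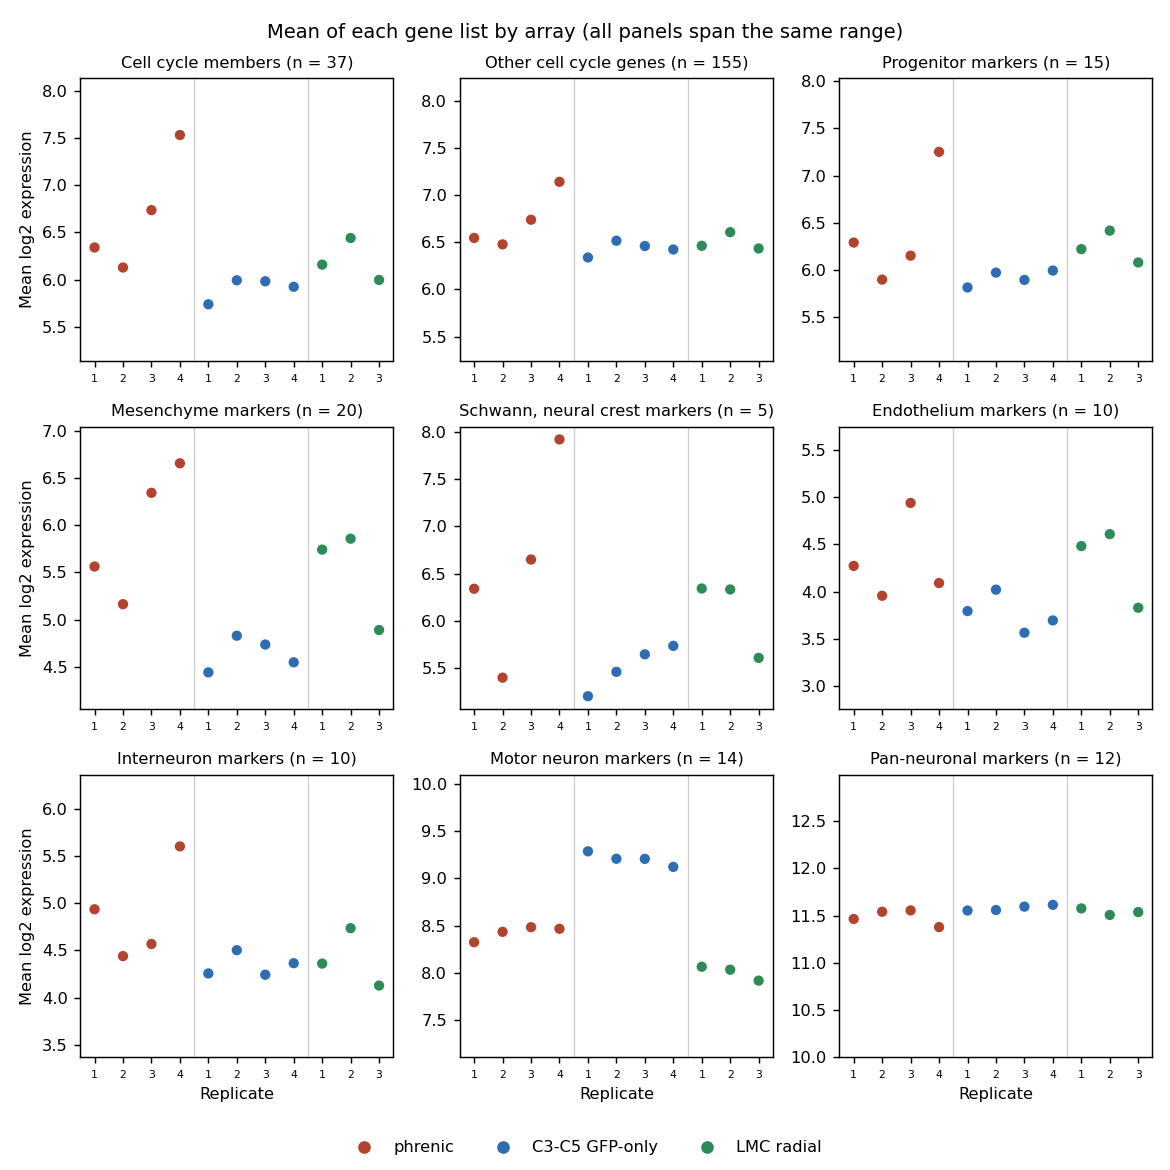
Mean log2 expression of 9 gene lists in each array, by cell type (colour) and replicate (horizontal axis); every panel spans the same range of log2 units. The cell cycle, progenitor, mesenchyme, and Schwann and neural crest means are highest in phrenic replicate 4. The pan-neuronal means run from 11.38, in phrenic replicate 4, to 11.61.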

How the data were processed

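The deposited values are log2 expression of 45101 probe sets, which per the submitters' processing notes the authors made with RMA, version not stated. The 64 control probe sets were not tested. Of the other 45037, 34945 had 1 gene symbol, 932 several and 9160 none in the platform annotation. Limma 3.58.1 (R 4.3.3) was fitted over all 45037 with 1 mean per cell type and 1 spread shared by the 11 arrays (8 residual and 2.92 prior degrees of freedom). Two-sided p-values were adjusted by Benjamini and Hochberg within each of 6 comparisons, and an adjusted p under 0.05 passes. The number of arrays limits the precision. Alternatives covered normalization, dim probe sets, a floor of 5, the moderation, array weights, blocks, covariates, averaged probe sets and each array left out. The fit was tested on simulated data.

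Given array by array were the genes that passed, those whose arrays of 1 type lay beyond all others, and, where measured, Mki67, Top2a, Cdk1, Ccnb1 (not measured), Ccnd1, Pcna and Mcm5, and of each other list up to 4 genes with the smallest p, of which the text gives those that passed. The genes and lists were chosen with earlier results of these data known. Other genes the text names, and the markers shown, were picked after their values were seen.

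Replicate numbers of the labels were checked as pairs. Deviations of same-numbered phrenic and GFP-only arrays correlated at 0.125, 0.183, 0.224 and 0.177, above 0.1 in every pair. A replicate block was therefore fitted as an alternative, and the main fit used no pairing. Some pairs with different numbers correlated as much, phrenic 3 with GFP-only 2 at 0.280 and phrenic 2 with GFP-only 3 at 0.269. Phrenic 1 with GFP-only 4 was at 0.186 and phrenic 4 with GFP-only 1 at 0.179. The remaining pairs ran from -0.254 to -0.125. The correlations therefore do not single out the replicate numbers. Same-numbered pairs with LMC radial arrays ran from -0.083 to 0.050.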

Additional observations from a re-analysis of the deposited data

Results flagged for a closer look

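In a group of 4 arrays, 1 array was taken to stand apart when its gap to the nearest other array as a share of the range of the group exceeded Dixon's 95% critical value. Of the 74 groups of 4 tested over the 37 genes, 2 met this, and chance gives about 1 in 20. Both concern GFP-only replicate 1. Mcm6, a helicase subunit, was at 6.99 there and from 7.33 to 7.38 in the other GFP-only arrays, a gap of 0.868 of the range. Rrm2, the ribonucleotide reductase subunit, was at 10.39 there and from 10.79 to 10.86 in the others, a gap of 0.861. No phrenic array met the rule for any gene, although phrenic 4 was the highest in 33 of 37, since the other phrenic arrays were spread as well.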

How the results depend on the processing

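The counts below are genes with an adjusted p under 0.05 in limma, listed where they moved by more than 1.5 times. The share of all probe sets passing under each setting is not given here, so a moved count need not concern these genes alone. Against the mean of the other types, main counts for the 37 genes and for the wider list were 2 and 9 for phrenic, 0 and 0 for GFP-only and 0 and 6 for LMC radial neurons. They were 3 and 2 for phrenic against GFP-only, 0 and 7 for phrenic against LMC radial and 0 and 2 for LMC radial against GFP-only neurons.

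For phrenic neurons against the mean of both other types, the 37 genes gave 0 calls with quantile normalization, median centring, values below 5 raised to 5, array weights, the replicate block, the arrays with the higher 25th percentile, or the mesenchyme or Actb covariate. They gave 1 with the array set (the arrays split at the 25th percentile) as a block or without phrenic 3 and 4, and 4 with trended robust moderation or averaged probe sets. GFP-only neurons gave 1 with trended moderation, averaged probe sets or without phrenic 3 and 4, and 5 with array weights. LMC radial neurons gave 1 with averaged probe sets and 2 with array weights, the mesenchyme covariate or without phrenic 3 and 4.

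Phrenic against GFP-only gave 0 with the floor of 5, the higher-percentile arrays, the mesenchyme covariate or a fit of 2 types, and 1 with the replicate block or the Actb covariate. Phrenic against LMC radial gave 1 with the replicate block (Melk) or without phrenic 3 and 4 (Mcm7), and 2 with the mesenchyme covariate (Ccnb2 and Cenpf). LMC radial against GFP-only gave 1 with the replicate block (Mcm3) or averaged probe sets, 2 without phrenic 3 and 4, and 5 with array weights or the fit of 2 types. The fit of 2 types leaves out the arrays of the third type, also from the shared spread. The causes of these changes were not tested. LMC radial numbers share only a number with the others, and for phrenic and GFP-only arrays the correlations cannot show a pairing by number, so the block is an alternative fit only.

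In the wider list, phrenic neurons gave 5 with quantile normalization, 4 with centring, the replicate block or the Actb covariate, 3 with the mesenchyme covariate and 2 in the higher-percentile arrays. GFP-only neurons gave 1 with the floor or without phrenic 3 and 4, and 3 with array weights. LMC radial neurons gave 0 in the higher-percentile arrays, 1 with the floor or the set block, 2 with the Actb covariate, 10 without phrenic 3 and 4, 11 with array weights and 12 with the mesenchyme covariate. Phrenic against GFP-only gave 0 in the higher-percentile arrays or with the mesenchyme covariate, 1 in the fit of 2 types, 4 without dim probe sets, with averaged probe sets, without phrenic 3 and 4 or with the Actb covariate, and 5 with the set block. Phrenic against LMC radial gave 4 with quantile normalization, the floor or the set block, 3 in the fit of 2 types or with the Actb covariate, 2 in the higher-percentile arrays and 11 without phrenic 3 and 4. LMC radial against GFP-only gave 0 with the floor, the set block or in the higher-percentile arrays, 1 with quantile normalization, without dim probe sets, with averaged probe sets or with the mesenchyme or Actb covariate, 4 without phrenic 3 and 4, 6 in the fit of 2 types and 10 with array weights.

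With 1 array left out, the 37 genes gave 0 to 4, 0 to 5 and 0 to 1 calls for phrenic, GFP-only and LMC radial neurons against the mean of the other types. They gave 0 to 9 for phrenic against GFP-only, 0 to 2 for phrenic against LMC radial and 0 to 2 for LMC radial against GFP-only. The wider list gave 3 to 13, 0 to 2, 1 to 9, 1 to 11, 3 to 12 and 0 to 4 in the same order. The array mean of the 37 genes ran from 6.40 to 6.87 in phrenic, 5.88 to 5.97 in GFP-only and 6.08 to 6.30 in LMC radial neurons. It was 5.73, 5.15 and 5.39 with averaged probe sets, and 6.17 in GFP-only neurons with the floor.

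Phrenic minus GFP-only differences turned sign with the mesenchyme covariate in Ccnb2 (-0.005), Mcm5 (-0.668), Mki67 (-0.031), Nusap1 (-0.118) and Top2a (-0.096). Mcm5 also turned without phrenic 3 and 4 (-0.234), and Pcna turned in the higher-percentile arrays (0.060) and without phrenic 1 (0.024), with a range of -0.167 to 0.024 over the fits without 1 array. Leaving out phrenic 3 and 4 and the Actb covariate were chosen after seeing the data. Genes near background limit the comparison: 6 of the 37 had every type mean below 5 (Aurkb, Plk1, Melk, Cenpe, Cdc6 and Tyms). The mean over all arrays was below 5 in 11 of the 37, Ccnb2 among them.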
